A study of Mus musculus with 10 samples.

Results

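The gene set described here holds 34 genes of the oligodendrocyte lineage and of myelin, found by symbol among the 55487 genes of the deposited expression table. They fall into 6 precursor genes, 4 lineage regulators, 6 genes of newly formed oligodendrocytes and 18 genes of myelinating cells. Levels were measured by RNA-seq of total cortical RNA, after removal of ribosomal RNA, in mice aged 18 days. The 5 Usp7 cKO; Trp53+/- animals carried Usp7 fl/fl and NEX-cre, a Cre active in glutamatergic neurons of the forebrain, and were set against 5 Usp7 WT; Trp53+/- animals. All 10 animals were heterozygous for Trp53, and each library came from a separate mouse. USP7 removes ubiquitin from other proteins, and it was deleted in neurons, so the comparison asks what differed in the glial lineage of a cortex whose glutamatergic neurons had lost it. The labels used here do not say whether Usp7 WT animals carried Cre.

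Oligodendrocytes wrap axons in myelin, a stack of membrane rich in cholesterol, galactolipids and a few abundant proteins. They arise from precursors that divide, carry the receptor for platelet-derived growth factor and express Cspg4, and pass through a short-lived, newly formed stage before they make myelin. In the mouse cortex the third postnatal week is a time of rapid myelination, when cells of all these stages are present together. In bulk tissue, fewer cells of a stage and less RNA per cell cannot be told apart.

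Reads assigned to exon bins summed to between 42628526 and 51797145 per library. Usp7 held 31.6 to 40.9 TPM (a transcript level scaled by gene length and library total) in Usp7 cKO cortex, against 48.3 to 61.9 TPM in Usp7 WT cortex. Neurod6, the locus that drives NEX-cre, held 21.5 to 26.6 TPM in Usp7 cKO and 50.1 to 54.4 TPM in Usp7 WT libraries. In 2 libraries, those labelled Usp7 cKO replicate 1 and Usp7 WT replicate 2, the female-specific RNA Xist went against the labelled sex, and results that rest on this discordant pair of libraries are given with and without it. Median-of-ratios size factors of the libraries ranged from 0.968 to 1.13 in Usp7 cKO and from 0.922 to 1.1 in Usp7 WT, so each direction below was also checked on TPM rescaled by them.

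Of the 34 genes, 33 passed the minimum of 0.5 TPM on average over all libraries and were tested with limma on log2(TPM + 0.5), with p-values adjusted over all 27580 genes tested. In this fit 3 precursor genes, C1ql1, Sapcd2 and Lhfpl3, were higher in Usp7 cKO cortex, and no gene of the set was lower. Over all genes tested, 9.22% were higher and 4.67% were lower, so 3 higher genes of 33 is a share close to that of all genes. The same 3 genes were those whose Usp7 cKO libraries all lay above every Usp7 WT library, which held for 8.19% of all genes tested, and none had all Usp7 cKO libraries below, which held for 4.58%. On rescaled TPM, 4 genes of the set were higher and 1 was lower, where 9.6% and 10.9% of all genes were, and edgeR on read counts called 5 higher and 1 lower, where it called 14.0% and 13.9% of all genes. The genes that these settings added included Myrf, of the newly formed stage, and Trf, a myelinating gene. The median log2 change was 0.30 over the 6 precursor genes, 0.07 over 3 lineage regulators, 0.16 over the 6 newly formed genes and -0.03 over the 18 myelinating genes, against 0.06 over all genes tested. On rescaled TPM these medians were 0.24, 0.01, 0.10 and -0.09, against 0.01 over all genes. All 6 precursor genes lay above the median of all genes on either scale, as did 4 of the 18 myelinating genes. Without the discordant pair the medians were 0.27, 0.03, 0.07 and -0.02, against 0.02 over all genes. In that fit 2 genes of the set were higher and 0 lower, where 4.76% and 3.15% of all genes were. All 6 precursor and 8 of the 18 myelinating genes then lay above the median of all genes. The members were chosen with earlier results of these data known, so these counts and medians only describe the set.

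**Figure D1:**
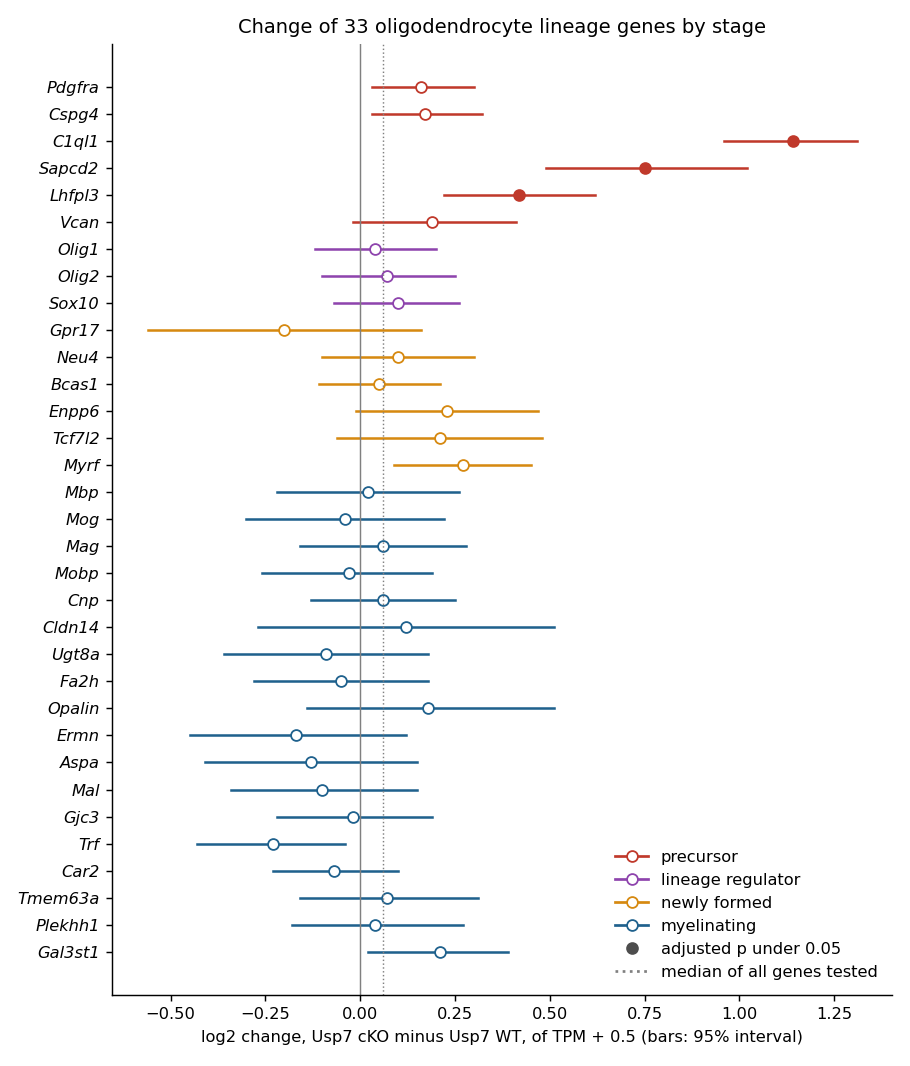
Log2 change of the 33 tested genes (Usp7 cKO minus Usp7 WT, on TPM + 0.5; n = 5 each) in stage order from top to bottom, with 95% intervals from limma; filled points have an adjusted p under 0.05. The filled points are C1ql1 at 1.14, Sapcd2 at 0.75 and Lhfpl3 at 0.42, and the myelinating genes lie on both sides of 0.

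C1ql1 showed the largest change of the 34 genes in this fit. It encodes a secreted protein with a C1q-like domain, a ligand of the adhesion receptor encoded by Adgrb3, and in the cortex it is known as a marker of oligodendrocyte precursors. C1ql1 held 78.1, 74.3, 65.3, 73.0 and 59.4 TPM in Usp7 cKO libraries, against 32.6, 27.6, 31.1, 32.5 and 33.7 TPM in Usp7 WT libraries. The groups were far apart, and the lowest Usp7 cKO library was well above the highest Usp7 WT library. The mean was 70.0 ± 7.56 TPM in Usp7 cKO and 31.5 ± 2.36 TPM in Usp7 WT (SD, n = 5 each), a log2 change of 1.14 (SE 0.0779; limma, adjusted p = 1.41e-05). The highest Usp7 cKO value and the lowest Usp7 WT value were those of the discordant pair. Without it, the log2 change was 1.06 (limma, adjusted p = 0.00037), and over all 23 alternative settings it lay between 1.04 and 1.19 with every adjusted p under the threshold.

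The gene has 2 exons, and its reads rose along the whole transcript. In GRCm38 it lies on the minus strand at chr11:102939264-102946688. The sequence around its only junction is shown because reads across it come from spliced C1ql1 RNA. It is given for its GENCODE transcript, with the end of exon 1 in lower case and the start of exon 2 in capitals, and both sides are coding:
C1ql1 exon 1 to exon 2: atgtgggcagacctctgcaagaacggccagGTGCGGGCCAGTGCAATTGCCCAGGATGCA
Exon 2 held 526, 526, 410, 583 and 403 reads in Usp7 cKO libraries, against 223, 218, 232, 248 and 197 reads in Usp7 WT libraries. Exon 1 averaged 10.1 ± 1.02 RPM (reads scaled by library total) in Usp7 cKO and 4.34 ± 0.476 in Usp7 WT, a ratio of 2.33, and exon 2 averaged 10.5 ± 1.73 and 4.56 ± 0.254, a ratio of 2.30 (SD, n = 5 each). The junction held 239, 238, 218, 267 and 171 spliced reads in Usp7 cKO libraries, against 118, 93, 132, 99 and 94 in Usp7 WT libraries, with those of Usp7 WT replicate 1 halved because all its deposited intron counts were even. Exons and junction thus gave nearly the same ratio, which was 2.31 for the junction, scaled by each library's spliced reads, and no library of either group overlapped the other.

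**Figure D2:**
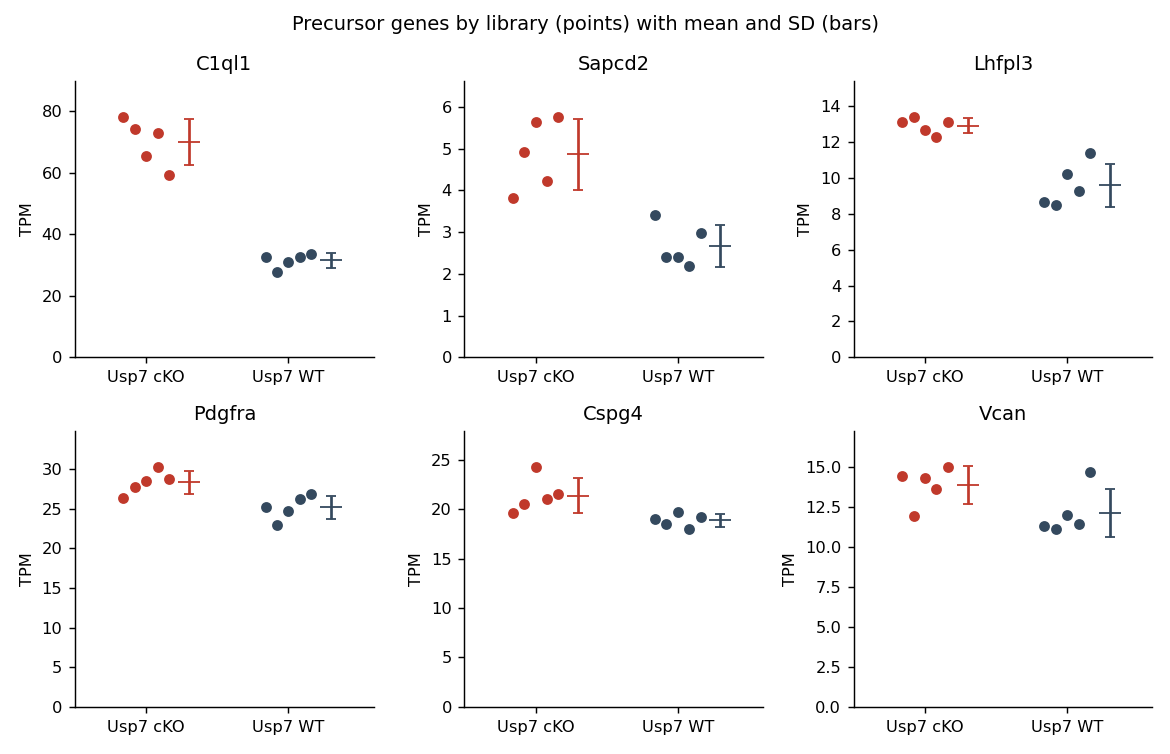
TPM of the 6 precursor genes in each library, Usp7 cKO on the left and Usp7 WT on the right of each panel; points are libraries and bars are mean and SD (n = 5 each). The groups separate for C1ql1 (59.4 to 78.1 against 27.6 to 33.7 TPM), Sapcd2 and Lhfpl3, and overlap for Pdgfra, Cspg4 and Vcan.

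Sapcd2, which encodes a protein linked to the orientation of the mitotic spindle, was the second gene that changed. It held 3.82, 4.92, 5.63, 4.22 and 5.76 TPM in Usp7 cKO libraries and 3.41, 2.40, 2.41, 2.19 and 2.98 TPM in Usp7 WT libraries. Every Usp7 cKO value was above every Usp7 WT value, but Usp7 cKO replicate 1 and Usp7 WT replicate 1 were close. Its log2 change was 0.75 (SE 0.117; limma, adjusted p = 0.00221), and 0.71 without the discordant pair (limma, adjusted p = 0.0149). All 9 of its exon bins with enough reads to test had a higher mean in Usp7 cKO, by ratios of 1.36 to 2.84. The 4 bins of the gene with the highest ratios, from 2.24 to 2.84 where all 5 Usp7 cKO libraries lay above every Usp7 WT library, had 102 or fewer bases each, and 2 of them adjoin. Across the region chr2:25372321-25378213, on the plus strand, the bin with the lowest ratio held 12 to 32 reads in Usp7 cKO libraries and 12 to 26 in Usp7 WT libraries.

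Genes of cell division were read from a list of 8, of which 7 were tested, 2 were higher and none was lower, where 9.22% and 4.67% of all genes were. In edgeR 5 of 8 were higher, where 14.0% of all genes were. Without the discordant pair none of 7 passed, where 4.76% of all genes were higher and 3.15% lower. Those called were Aurkb, a mitotic kinase (1.2 ± 0.159 TPM in Usp7 cKO and 0.645 ± 0.129 TPM in Usp7 WT; log2 0.57), and Birc5, its partner (1.29 ± 0.204 and 0.694 ± 0.180 TPM; log2 0.59). The 8 genes together summed to 11.1 to 13.5 TPM in Usp7 cKO and 8.11 to 9.86 TPM in Usp7 WT libraries. Without the discordant pair, Aurkb stood at 0.56 (limma, adjusted p = 0.0919) and Birc5 at 0.73 (adjusted p = 0.0507), and neither passed. Top2a, Mki67, Cdk1, Ccna2 and Ccnb1 had log2 changes of 0.43, 0.35, 0.33, 0.13 and -0.08 and did not pass. Cdk1 met the minimum of 0.5 TPM only through its level in Usp7 cKO (0.63 TPM, against 0.409 TPM in Usp7 WT). The part of dividing cells in the change of Sapcd2 was not tested.

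Lhfpl3 encodes a tetraspan membrane protein of the LHFPL family and is a marker of precursors in mouse cortex. Its levels were 13.1, 13.4, 12.7, 12.3 and 13.1 TPM in Usp7 cKO libraries, against 8.65, 8.52, 10.2, 9.25 and 11.4 TPM in Usp7 WT libraries. Usp7 cKO libraries were close together (coefficient of variation 3.43%) and Usp7 WT libraries were more spread (12.6%), with Usp7 WT replicate 5 nearest to the Usp7 cKO range. The log2 change was 0.42 (SE 0.0903; limma, adjusted p = 0.0128). Without the discordant pair it was 0.36 and no longer passed the threshold (limma, adjusted p = 0.0799), and with the same libraries left out of rescaled TPM, a setting chosen after the data were seen, it did (0.34, adjusted p = 0.0351).

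The receptor and proteoglycan genes that define precursors had small positive changes that did not pass the test. Pdgfra, the receptor for platelet-derived growth factor A, held 26.3, 27.8, 28.5, 30.3 and 28.7 TPM in Usp7 cKO libraries and 25.2, 23.0, 24.7, 26.2 and 26.8 TPM in Usp7 WT libraries. Cspg4, which encodes the NG2 proteoglycan, held 19.6, 20.5, 24.3, 21.0 and 21.5 TPM in Usp7 cKO libraries and 19.0, 18.5, 19.7, 18.0 and 19.2 TPM in Usp7 WT libraries. For both genes 4 of 5 Usp7 cKO libraries lay above every Usp7 WT library, and the fifth, Usp7 cKO replicate 1, fell within the Usp7 WT range. The log2 changes were 0.16 (95% interval 0.03 to 0.30; limma, adjusted p = 0.102) for Pdgfra and 0.17 (0.03 to 0.32; adjusted p = 0.111) for Cspg4. These intervals exclude a change as large as that of C1ql1, whose interval was 0.96 to 1.31.

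Set against Pdgfra in the same library, C1ql1 stood at 2.07 to 2.97 times its TPM in Usp7 cKO and at 1.2 to 1.29 times in Usp7 WT. Sapcd2 stood at 0.139 to 0.201 times the Pdgfra level in Usp7 cKO and at 0.0836 to 0.135 times in Usp7 WT. For Lhfpl3 the ratio was 0.405 to 0.497 in Usp7 cKO and 0.343 to 0.426 in Usp7 WT, so these ranges overlapped. Gpr17, a gene of newly formed cells, stood at 2.34 to 4.7 times the Pdgfra level in Usp7 cKO. In Usp7 WT it stood at 4.03 to 4.83 times, and these ranges overlapped too. These ratios do not depend on the scaling of a library, and they describe genes picked after their changes were known, so no test is given.

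Vcan, the matrix proteoglycan versican, held 14.4, 11.9, 14.3, 13.6 and 15.0 TPM in Usp7 cKO libraries and 11.3, 11.1, 12.0, 11.4 and 14.7 TPM in Usp7 WT libraries. One library of Usp7 WT, replicate 5, stood apart at 14.7 TPM, within the Usp7 cKO range. Its log2 change of 0.19 did not pass the test (95% interval -0.02 to 0.41; limma, adjusted p = 0.224), whereas edgeR and DESeq2 on read counts called it higher at a log2 change of 0.17 (edgeR, adjusted p = 0.0416) and 0.16 (DESeq2, adjusted p = 0.0428). Vcan stood at 0.13 without the discordant pair and did not pass (limma, adjusted p = 0.553).

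The transcription factors that set up the lineage were close to level between the genotypes. Olig1, a basic helix-loop-helix factor, held 216 to 268 TPM in Usp7 cKO and 209 to 257 TPM in Usp7 WT libraries, and its log2 change was 0.04 (95% interval -0.12 to 0.2). Olig2, its neighbour on chromosome 16 and the factor without which the lineage does not form in mice, averaged 55.7 ± 6.95 TPM in Usp7 cKO and 52.7 ± 3.58 TPM in Usp7 WT (log2 0.07; 95% interval -0.10 to 0.25). Sox10, which switches on myelin genes, averaged 68.5 ± 7.52 and 63.8 ± 3.51 TPM in Usp7 cKO and Usp7 WT (log2 0.10; 95% interval -0.07 to 0.26). None passed the test (limma, adjusted p = 0.760, 0.582 and 0.439), and Olig1 on rescaled TPM turned to -0.02. The antisense RNA Nkx2-2os is listed under 2 identifiers, of which 1 is at 0 in every library. The other held 0.235 to 0.857 TPM in Usp7 cKO and 0.171 to 0.526 TPM in Usp7 WT libraries, under the minimum for testing.

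Among genes of newly formed oligodendrocytes, the widest spread was that of Gpr17, a receptor that is switched on briefly and holds back maturation. It held 124, 75.5, 115, 70.9 and 95.7 TPM in Usp7 cKO libraries and 108, 92.8, 103, 109 and 130 TPM in Usp7 WT libraries. Usp7 cKO replicates 2 and 4 were below every Usp7 WT library, while replicates 1, 3 and 5 were within the Usp7 WT range. The log2 change was -0.20 (95% interval -0.56 to 0.16; limma, adjusted p = 0.468). It was -0.33 without Usp7 cKO replicate 1, -0.08 without Usp7 cKO replicate 4 and -0.42 without the discordant pair (limma, adjusted p = 0.187, 0.781 and 0.107). On rescaled TPM without the discordant pair, chosen after the data were seen, Gpr17 was lower in Usp7 cKO at a log2 change of -0.44 (limma, adjusted p = 0.0337), the only one of 23 alternatives that called it.

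Myrf, the factor that cells need to start making myelin, was nearest to the threshold. Its levels were 34.5, 36.2, 44.1, 35.2 and 40.7 TPM in Usp7 cKO libraries, against 28.6, 31.5, 34.8, 29.8 and 33 TPM in Usp7 WT libraries. Only Usp7 cKO replicate 1 was below the highest Usp7 WT value. The log2 change was 0.27 (95% interval 0.09 to 0.45; limma, adjusted p = 0.0522), and Myrf was called higher under 8 of 23 alternatives, among them rescaled TPM (log2 0.21; limma, adjusted p = 0.0413) and edgeR on counts (log2 0.23; adjusted p = 0.00748). Myrf stood at 0.29 without the discordant pair and did not pass (limma, adjusted p = 0.119). With these libraries left out of rescaled TPM, chosen after the data were seen, it passed (0.27; limma, adjusted p = 0.0313).

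The other newly formed genes did not pass the test. Enpp6, a phosphodiesterase that marks cells about to myelinate, had a log2 change of 0.23 (12.7 ± 1.47 TPM in Usp7 cKO and 10.8 ± 1.28 TPM in Usp7 WT). Tcf7l2, a factor of Wnt signalling in this stage, had 0.21, with 7.53 ± 1.07 TPM in Usp7 cKO and 6.43 ± 0.803 TPM in Usp7 WT. Neu4, a sialidase, and Bcas1, a protein of early myelinating cells, had log2 changes of 0.10 and 0.05, and their ranges overlapped.

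None of the 18 genes of myelinating cells passed the test on TPM as deposited, and 1 of them, Trf, was called lower under other settings. Mbp, which encodes the basic protein that compacts the myelin membrane and was the most abundant of the 34 genes, held 912, 1010, 1210, 930 and 1080 TPM in Usp7 cKO libraries, against 852, 1030, 1110, 873 and 1240 TPM in Usp7 WT libraries. The groups overlapped almost completely, and the log2 change was 0.02 (95% interval -0.22 to 0.26; limma, adjusted p = 0.921). This interval excludes a change of the size seen for C1ql1 or Sapcd2. Cnp, an enzyme of the cytoplasmic channels of myelin, had a log2 change of 0.06 (95% interval -0.13 to 0.25), with 414 ± 35.0 TPM in Usp7 cKO and 399 ± 49.9 TPM in Usp7 WT. Mag, an adhesion protein of the inner myelin layer, had 0.06, Mobp, a small basic protein, -0.03, and Mog, a protein of the outermost layer, -0.04, each with overlapping groups.

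The lipid enzymes of this group split in direction, and none passed. Ugt8a, which makes galactosylceramide, averaged 62.6 ± 5.89 TPM in Usp7 cKO and 67.3 ± 11.9 TPM in Usp7 WT (log2 -0.09). Fa2h, which hydroxylates its fatty acids, averaged 54.2 ± 6.34 and 56.2 ± 7.21 TPM (log2 -0.05). Gal3st1, which adds the sulfate that turns galactosylceramide into sulfatide, held 40.8, 41.3, 53.5, 40.1 and 49.6 TPM in Usp7 cKO libraries, against 36.5, 38.1, 41.4, 36.4 and 41.2 TPM in Usp7 WT libraries. Usp7 cKO replicates 3 and 5 stood above every Usp7 WT library, and its log2 change of 0.21 missed the threshold (95% interval 0.02 to 0.39; limma, adjusted p = 0.133). Aspa, which releases acetate from N-acetylaspartate, was the least abundant at 2.43 ± 0.249 TPM in Usp7 cKO and 2.72 ± 0.452 TPM in Usp7 WT (log2 -0.13).

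Trf, the iron carrier transferrin, was the gene of this group with the most negative change. It held 88.8, 96.3, 99.4, 81.9 and 91.4 TPM in Usp7 cKO libraries, against 88.3, 112, 115, 103 and 123 TPM in Usp7 WT libraries. Usp7 WT replicate 1 alone lay within the Usp7 cKO range, and the other Usp7 WT libraries were above it. The log2 change was -0.23 (95% interval -0.43 to -0.04; limma, adjusted p = 0.112), and Trf was called lower under 5 of 23 alternatives, at -0.30 on rescaled TPM (limma, adjusted p = 0.0199) and at -0.29 by edgeR on counts (adjusted p = 0.00175). Against Mbp in the same library, Trf stood at 0.0818 to 0.0974 times in Usp7 cKO and 0.0991 to 0.118 times in Usp7 WT, and Myrf at 0.0357 to 0.0378 times in Usp7 cKO and 0.0267 to 0.0342 times in Usp7 WT. Neither pair of ranges overlapped, and these ratios, too, were chosen after the changes were known.

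The remaining myelinating genes had log2 changes between -0.17 and 0.18. Those below 0 were Ermn, a cytoskeletal protein, at -0.17, Mal, a proteolipid of membrane sorting, at -0.10, Car2, a carbonic anhydrase, at -0.07, and Gjc3, a connexin, at -0.02. Those above 0 were Opalin, a membrane glycoprotein, at 0.18, Cldn14, a claudin, at 0.12, Tmem63a, a mechanosensitive channel, at 0.07, and Plekhh1 at 0.04. For each, at least 1 of the 5 Usp7 cKO libraries fell within the Usp7 WT range.

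Myelin genes varied between animals of the same genotype, and many of them varied together. Among Usp7 WT libraries, replicates 1 and 4 were the lowest pair for all 18 myelinating genes, and replicate 3 was among the highest pair for all 18. Among Usp7 cKO libraries, replicate 3 was the highest for 16 of the 18, and replicate 4 was among the lowest pair for 14. The median deviation of the 18 genes from their own means ran from -0.13 to 0.21 in Usp7 cKO libraries and from -0.24 to 0.18 in Usp7 WT libraries on the log2 scale. Summed, the 18 genes made up 2430 to 3070 TPM in Usp7 cKO libraries and 2240 to 3110 TPM in Usp7 WT libraries.

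Part of this spread moved with the scaling of the library. Usp7 cKO replicate 3 and Usp7 WT replicate 5 had the highest size factors of their groups, 1.13 and 1.1. On rescaled TPM their median deviations came down to 0.05 and 0.06, and Usp7 WT replicate 5 was among the highest pair for 2 of the 18 genes, against 15 on TPM as deposited. Usp7 WT replicate 1 remained low, at -0.19, and was still among the lowest pair for 17 of the 18 genes, and Usp7 WT replicate 3 remained high at 0.17. The median SD within a group was 0.174 (log2) over the myelinating genes and 0.130 over the precursor genes, against 0.123 over the 10760 genes that averaged 10 TPM or more. Of the 6 precursor genes, only C1ql1, Sapcd2 and Lhfpl3 split by genotype singly on TPM as deposited. The median deviation of all 6 lay between 0.12 and 0.23 in Usp7 cKO libraries on that scale. In Usp7 WT libraries it lay between -0.29 and -0.03. The highest pair of the precursor genes in each group was then that of the myelinating genes. These were Usp7 cKO replicates 3 and 5 and Usp7 WT replicates 3 and 5. Their lowest Usp7 WT library was replicate 2, which for the myelinating genes stood at 0.04. On rescaled TPM the highest precursor pairs were others, Usp7 cKO replicates 4 and 2 (0.21 and 0.18) and Usp7 WT replicates 1 and 4 (-0.08 and -0.09). Usp7 cKO replicate 3 was then the lowest of its group, at 0.07.

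**Figure D3:**
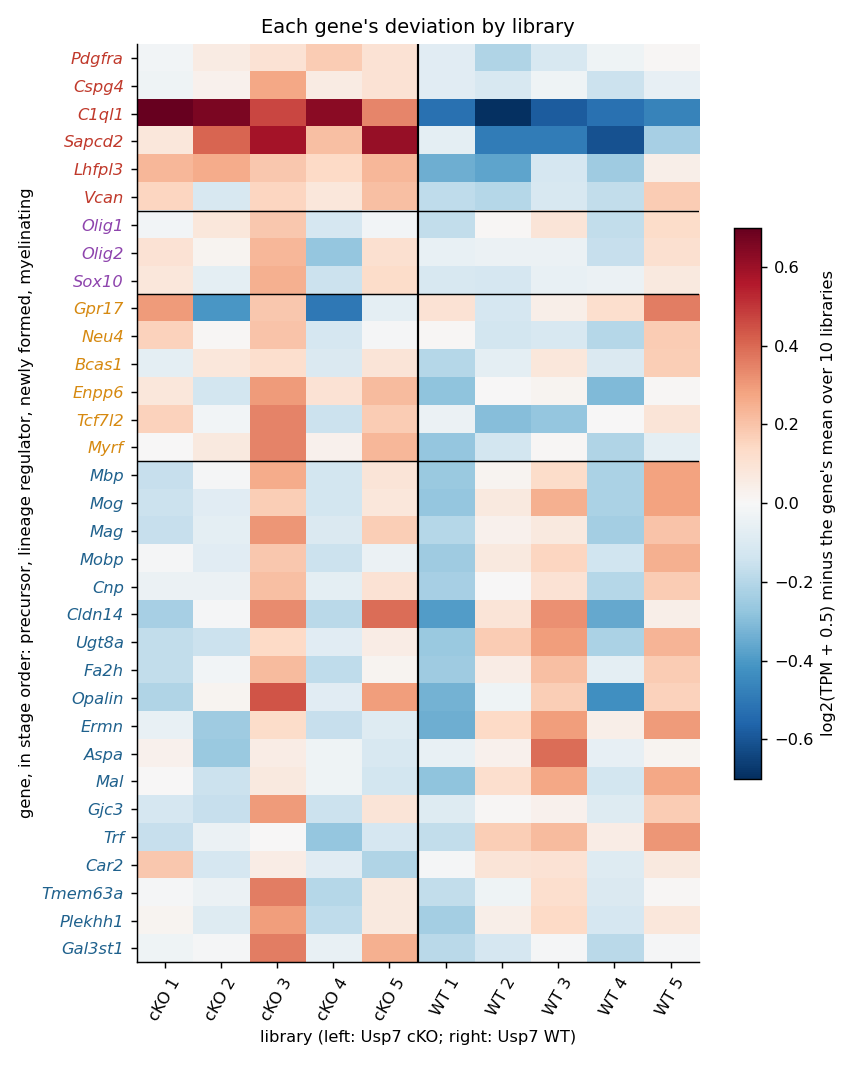
Deviation of each gene from its mean over 10 libraries (log2 of TPM + 0.5; red above, blue below, colours end at 0.7), with Usp7 cKO libraries left of the vertical line and Usp7 WT libraries right of it, and genes in stage order. C1ql1, Sapcd2 and Lhfpl3 split by genotype, whereas the myelinating genes are low together in Usp7 WT replicates 1 and 4 and high together in Usp7 cKO replicate 3 and Usp7 WT replicates 3 and 5.

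Isoforms were read from exon bins and from spliced reads. Exon usage, the share of a gene's reads in a bin, was tested with edgeR in 32 of the 34 genes over 439 bins, and no gene passed, against 2.85% of 13954 genes tested. At an unadjusted p under 0.05 there were 17 bins and, by the p of the gene as a whole, 1 gene, Tmem63a. Intron usage could be tested in 14 of the 34 genes, in 24 clusters of introns, and none passed, against 0.22% of 10441 clusters tested. No cluster of the set was under 0.05 before adjustment, though 4 of its 73 introns were. Where nothing differs, a cut at 0.05 lets through about that share of features, and these unadjusted counts were near it. Tmem63a, Lhfpl3 and Vcan, described next, had p-values among the lowest of the set for exon or intron usage. The share of all bins or introns that separate the groups is not given, so their separation is a description only.

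Tmem63a was the gene with the lowest p for exon usage. Its exon 8 at chr1:180956420-180956528 (GRCm38, plus strand), is a coding exon of 109 bases, a length that is not a multiple of 3, and is shown because the authors' own test called it:
Tmem63a exon 8: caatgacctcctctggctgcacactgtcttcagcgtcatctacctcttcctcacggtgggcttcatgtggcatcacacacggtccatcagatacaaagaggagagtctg
The exon held 9, 8, 10, 9 and 5 reads in Usp7 cKO libraries, against 11, 18, 17, 17 and 22 reads in Usp7 WT libraries. These are few reads, yet every Usp7 cKO library was below every Usp7 WT library. The exon took 0.949 ± 0.235% of the gene's bin reads in Usp7 cKO and 1.97 ± 0.488% in Usp7 WT (SD, n = 5 each), and its usage relative to the gene had a log2 change of -1.05 (edgeR, unadjusted p = 0.00086, adjusted p = 0.124). In the authors' deposited table its log2 fold change was -1.07 with an adjusted p of 0.0283, in a table that called 0.573% of its bins. The authors' deposited table also called 2 bins of Mbp, with log2 fold changes of -0.03 and -0.02. No other bin of the set was called there, out of 481 with an adjusted p.

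Lhfpl3 had the next lowest p for exon usage and the lowest for its introns. In GRCm38 a 48-base exon on the plus strand at chr5:23221865-23221912 is the third exon of a GENCODE transcript and lies between exons of 237 and 2263 bases. Its coding part is printed with the stop codon that ends the reading frame in capitals, since including the exon closes the frame there:
Lhfpl3 exon 3: atgatggaaatgctTAA
Of the spliced reads that include or skip this exon, counting its 2 junctions as their mean, 38.9, 45.9, 25.9, 40.2 and 51.4% included it in Usp7 cKO libraries. In Usp7 WT libraries 17.3, 17.5, 20.0, 22.0 and 19.1% did. All Usp7 cKO libraries were above all Usp7 WT libraries, with Usp7 cKO replicate 3 nearest to them, and each library's value rested on 39 to 108 reads. The smallest p among the introns of the cluster was 0.0206 before adjustment (edgeR), and that of the cluster 0.0502, neither of which held after adjustment. The exon bin gave the same direction. It held 30, 30, 25, 24 and 43 reads in Usp7 cKO libraries, against 23, 9, 9, 20 and 17 in Usp7 WT libraries. Its relative usage had a log2 change of 0.54 (edgeR, unadjusted p = 0.0221, adjusted p = 0.773). Its neighbours, of 237 and 2254 counted bases, were higher by ratios of 1.37 and 1.35, against 2.03 for the 48-base exon.

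**Figure D4:**
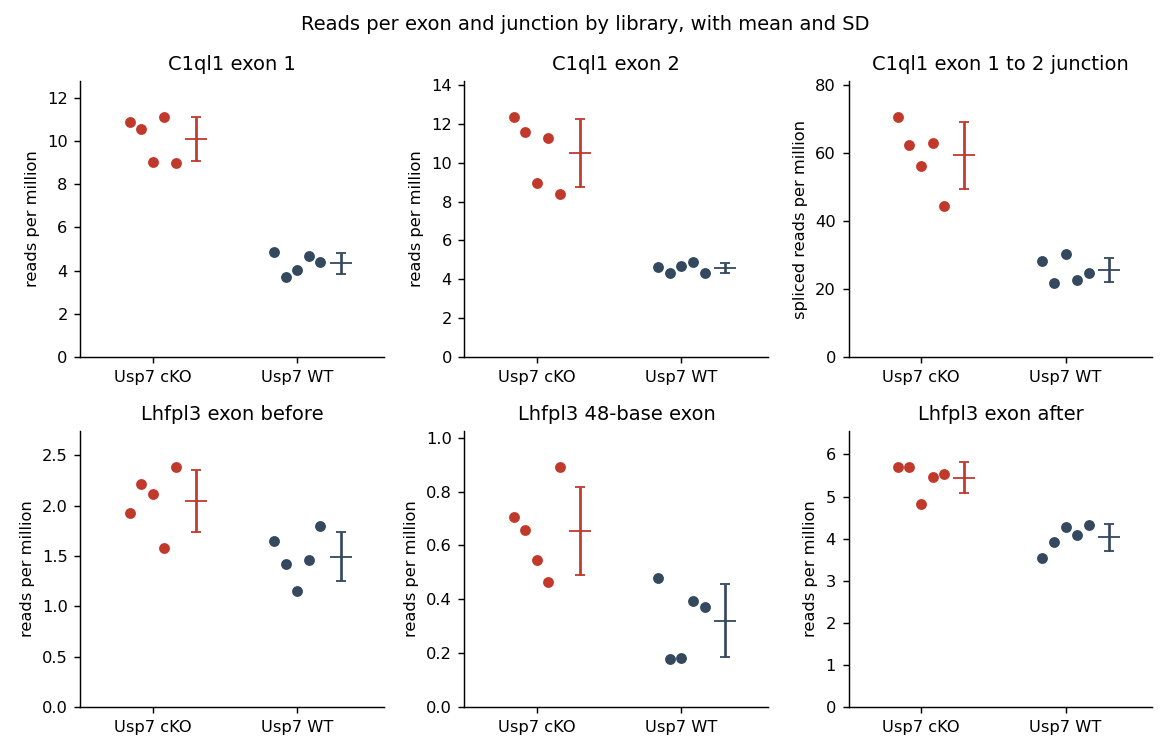
Scaled reads (RPM, per library total) by exon bin, and scaled spliced reads for the C1ql1 junction, in each library of Usp7 cKO (left) and Usp7 WT (right); bars are mean and SD (n = 5 each). The 2 exons and the junction of C1ql1 differ by ratios of 2.30 to 2.33, and the 48-base exon of Lhfpl3 by 2.03 where its neighbours differ by 1.37 and 1.35.

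Versican isoforms differ in the large exons that carry its glycosaminoglycan chains, and the form without exon 8 is the main one of the adult brain. The ends of exons 8 and 7 in lower case, joined to the start of exon 9 in capitals, show the reads that tell the forms apart (GRCm38, minus strand):
Vcan exon 8 to exon 9: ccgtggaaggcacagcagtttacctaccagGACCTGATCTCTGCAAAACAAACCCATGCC
Vcan exon 7 to exon 9: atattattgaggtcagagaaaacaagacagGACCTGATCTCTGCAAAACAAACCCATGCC
Exon 8, at chr13:89688285-89693501, supplied 41.2, 32.5, 26.9, 35.0 and 45.0% of these reads in Usp7 cKO libraries. In Usp7 WT libraries it supplied 0, 20.6, 25.0, 15.0 and 13.3%. The ranges did not overlap, but each value rested on only 20 to 60 reads, and the difference did not pass (edgeR, smallest unadjusted p of an intron 0.0315, cluster p 0.0630 before adjustment).

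**Figure D5:**
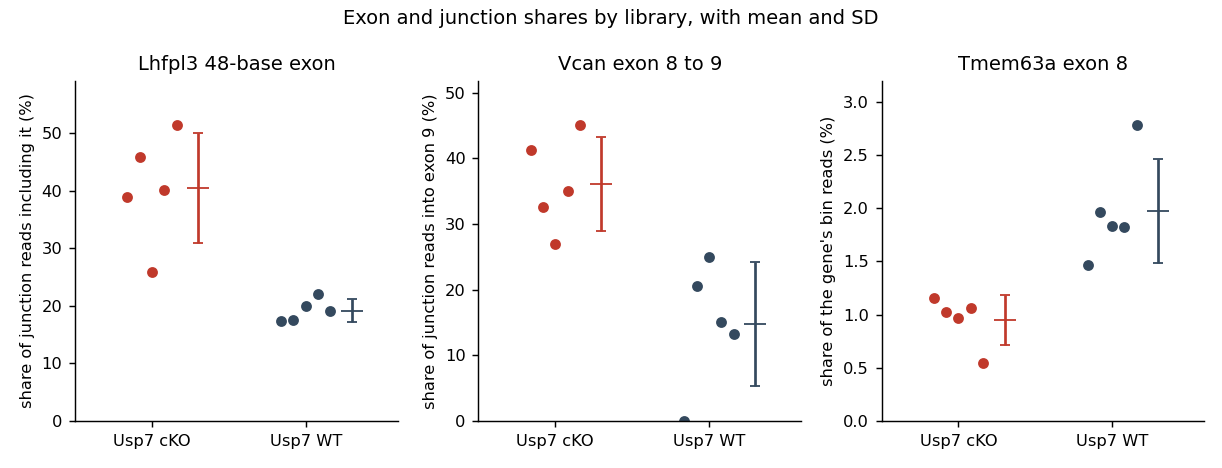
Share of junction reads that include the 48-base exon of Lhfpl3, share of reads into Vcan exon 9 that come from exon 8, and share of Tmem63a bin reads in exon 8, each in percent by library, with Usp7 cKO left of Usp7 WT; bars are mean and SD (n = 5 each). The ranges of the groups do not overlap in any panel, and none of the 3 differences passed after adjustment in edgeR. The 3 had p-values among the lowest of the set, and the share of all bins or introns without overlap is not given.

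The classical isoform choices of myelin genes showed no difference beyond the spread between libraries. Mag includes or skips an exon that carries a stop codon, known as exon 12, at chr7:30900352-30900396 on the minus strand, and inclusion gives its short form. Its coding part ends in the stop codon in capitals:
Mag exon 12: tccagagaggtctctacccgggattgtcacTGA
The exon was included in 14.7 ± 0.923% of junction reads in Usp7 cKO and 13.9 ± 1.78% in Usp7 WT, with 358 to 692 reads per library. Mbp included its 78-base exon 2 in 25.0 ± 0.912% of junction reads in Usp7 cKO and 24.7 ± 0.757% in Usp7 WT, on 8290 to 13322 reads per library. At that depth the groups lay within 1 SD of each other, so a shift toward the larger isoforms of Mbp was not detectable. Bcas1, Myrf and Mobp exons varied by a few percentage points, among them a 264-base exon of Myrf that was included in 78.8 ± 5.51% in Usp7 cKO and 82.4 ± 4.35% in Usp7 WT. Wider gaps on few reads did not pass. A 73-base exon of Tcf7l2 was included in 45.9 ± 10.3% in Usp7 cKO and 61.7 ± 22.9% in Usp7 WT, on 10 to 41 reads per library. For a 218-base exon of Gal3st1 the shares were 43.8 ± 8.78% in Usp7 cKO and 53.1 ± 15.7% in Usp7 WT, on 24 to 61 reads.

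Other genes of the lineage, outside the 34, were read from 3 lists by stage. Of 18 further precursor genes, 5 were higher in Usp7 cKO and none lower; of 13 further genes of newly formed cells, 2 were higher and none lower; and of 32 tested myelinating genes, 2 were higher and 1 lower. These counts, and those of the lists that follow, stand beside 9.22% higher and 4.67% lower over all genes tested, 9.6% and 10.9% on rescaled TPM, and 4.76% and 3.15% without the discordant pair. In edgeR these shares were 14.0% and 13.9%. The median log2 changes of the lists were 0.10, 0.13 and 0.02, against 0.06 over all genes tested. On rescaled TPM the precursor list held 6 higher and 3 lower genes with a median of 0.04, and without the discordant pair 3 higher and 0 lower.

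Emid1, which encodes a secreted protein with an EMI domain, was the most changed precursor gene of these lists, at 44.6 ± 5.30 TPM in Usp7 cKO and 18.5 ± 2.58 TPM in Usp7 WT (SD, n = 5 each; log2 1.25; limma, adjusted p = 1.54e-05). Megf11, a transmembrane protein with EGF-like repeats, averaged 17.2 ± 1.4 TPM in Usp7 cKO and 11.3 ± 0.912 TPM in Usp7 WT (log2 0.58; adjusted p = 0.000936). Cacng5 and Cacng4, which encode auxiliary subunits of AMPA receptors, had log2 changes of 0.62 (limma, adjusted p = 0.00589) and 0.45 (adjusted p = 0.0277), and Susd5 0.38 (adjusted p = 0.0115). Of these 5, Cacng4 and Susd5 no longer passed without the discordant pair, at 0.38 and 0.30 (limma, adjusted p = 0.145 and 0.0825). Of the same list Ptprz1, a receptor phosphatase, had a log2 change of 0.07 (limma, adjusted p = 0.429). Pcdh15, a cadherin, had -0.25 (adjusted p = 0.0717) and was called lower on rescaled TPM (adjusted p = 0.00376).

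In newly formed cells, Tmem163, a zinc transporter, averaged 52.4 ± 2.67 TPM in Usp7 cKO and 31.0 ± 2.06 TPM in Usp7 WT (log2 0.75; limma, adjusted p = 1.8e-05). Casr, the calcium-sensing receptor, had a log2 change of 0.46 (adjusted p = 0.0245), and of 0.44 without the discordant pair (0.108). Among myelinating genes, Galnt6, which starts mucin-type glycans, rose with a log2 change of 0.63 (adjusted p = 0.00382) and Pllp, plasmolipin, with 0.34 (0.0261), a change of 0.29 without the discordant pair (0.119). Cryab, a small heat shock protein that oligodendrocytes share with astrocytes, fell to 58.3 ± 3.90 TPM in Usp7 cKO, against 93.2 ± 9.35 TPM in Usp7 WT (log2 -0.67; adjusted p = 0.000384).

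Of 23 genes of myelin lipid synthesis, 1 rose and 1 fell, shares no higher than those of all genes, and on rescaled TPM 1 rose and 3 fell. Srebf1, a master factor of fatty acid synthesis, was higher at 39.9 ± 3.24 TPM in Usp7 cKO and 30.1 ± 2.03 TPM in Usp7 WT (log2 0.40; limma, adjusted p = 0.0036). Scd1, a desaturase that this factor is known to switch on, was lower at 70.7 ± 7.66 TPM in Usp7 cKO and 94.2 ± 2.41 TPM in Usp7 WT (log2 -0.42; adjusted p = 0.000844). Among 12 genes of the node of Ranvier and its flanks, where myelin meets the axon, 3 rose and 2 fell, whereas 2 rose and 4 fell both on rescaled TPM and in edgeR. Gldn, gliomedin, stood at 3.73 ± 0.447 TPM in Usp7 cKO and 1 ± 0.162 TPM in Usp7 WT (log2 1.49; adjusted p = 3.91e-05). The axonal potassium channel gene Kcna2 fell to 76.2 ± 5.85 TPM in Usp7 cKO, against 103 ± 7.55 TPM in Usp7 WT (log2 -0.43; adjusted p = 0.00254). The others were Epb41l3 at 0.21, Cntnap1 at 0.19 and Cntn1 at -0.17, and these 3 stood at 0.18, 0.17 and -0.17 without the discordant pair and did not pass (limma, adjusted p = 0.193, 0.185 and 0.127).

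Signals known to act on the lineage formed a list of 27 genes, of which 25 passed the minimum, and 3 rose and 1 fell. On rescaled TPM 3 rose and 3 fell, and in edgeR 4 rose and 5 fell. Ntf3, neurotrophin 3, a growth factor for precursors, averaged 1.99 ± 0.303 TPM in Usp7 cKO and 0.961 ± 0.376 TPM in Usp7 WT (log2 0.80; limma, adjusted p = 0.0141). Notch1, a receptor that delays maturation, had 0.30 (adjusted p = 0.033), and Adgrg1, an adhesion receptor of dividing precursors, 0.20 (0.0171). Lingo1, an inhibitor of myelination that neurons also express, had -0.27 (0.0279). Without the discordant pair Ntf3, Notch1 and Lingo1 stood at 0.78, 0.26 and -0.28 and no longer passed (limma, adjusted p = 0.0784, 0.153 and 0.105), and on rescaled TPM Adgrg1, at 0.14, did not (0.120).

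Genes related to C1ql1, from a list of 8 genes of C1q-like proteins, cerebellins and their receptor, changed in both directions. Cbln1, a synaptic organiser, averaged 35.7 ± 1.66 TPM in Usp7 cKO and 17.2 ± 0.896 TPM in Usp7 WT (log2 1.04; limma, adjusted p = 3.59e-06), and C1ql2 averaged 14.5 ± 3.11 and 4.72 ± 1.26 TPM (log2 1.54; adjusted p = 0.000737). C1ql4 held 0.788 to 1.66 TPM in Usp7 cKO and 0 to 0.212 TPM in Usp7 WT libraries, and Cbln3 had a log2 change of 0.60, which did not pass without the discordant pair (0.60; limma, adjusted p = 0.118). Both passed the minimum of 0.5 TPM only through their level in Usp7 cKO. Cbln2 fell to 19.3 ± 2.02 TPM in Usp7 cKO, against 38.9 ± 2.81 TPM in Usp7 WT (log2 -1; adjusted p = 5.31e-05). Adgrb3, the receptor, had -0.05 (adjusted p = 0.661), and was called lower on rescaled TPM at -0.11 (limma, adjusted p = 0.0452). In edgeR it stood at -0.1 and did not pass (adjusted p = 0.0845). Several of these genes are known from neurons, and the cell type that supplied the added C1ql1 reads was not tested.

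Markers of other cells of the cortex moved as follows. All 8 markers of glutamatergic neurons were lower in Usp7 cKO, with a median log2 change of -0.45. Without the discordant pair 5 of them passed, with a median of -0.48. One of the 8 is Neurod6, the locus of the Cre allele, and the part of that allele in its level was not tested. The sum of the 8 was 4320 to 5390 TPM in Usp7 cKO and 7560 to 8820 TPM in Usp7 WT libraries. Nrgn alone made up the largest part of it, at 2390 ± 233 TPM in Usp7 cKO and 4640 ± 396 TPM in Usp7 WT. Of 10 microglial markers 9 were lower, with sums of 262 to 303 TPM in Usp7 cKO and 382 to 431 TPM in Usp7 WT libraries. Of 10 astrocyte markers 2 were higher, Gfap (log2 0.42) and Sox9 (0.32), which stood at 0.39 and 0.27 without the discordant pair and did not pass (limma, adjusted p = 0.0808 and 0.113). On rescaled TPM 2 others, Slc1a2 (-0.22) and Aqp4 (-0.24), were lower, and the sums overlapped at 2300 to 2820 TPM in Usp7 cKO and 2500 to 2840 TPM in Usp7 WT. Of 8 markers of GABAergic neurons 1, Pvalb, was lower (log2 -0.67), and it stood at -0.72 without the discordant pair (limma, adjusted p = 0.128). Sst was also called lower on rescaled TPM (-0.25; limma, adjusted p = 0.0317) and in edgeR (-0.24; adjusted p = 0.00771). No marker of endothelial cells, pericytes, fibroblasts, choroid plexus or Schwann cells passed on TPM as deposited. On rescaled TPM 1 pericyte marker, Pdgfrb (0.20), and 1 of choroid plexus, Kl (1.02), were higher and 1 Schwann cell gene, Drp2 (-0.21), was lower, and edgeR also called Rgs5 and Sostdc1 lower. Of the Schwann cell genes, Pmp2 held 0 to 0.0452 TPM in Usp7 cKO libraries and was at 0 in all 5 Usp7 WT libraries.

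Genes of the thalamus, a neighbouring tissue, were counted too. Of 6 tested, Prkcd was higher (15.7 ± 2.11 TPM in Usp7 cKO and 7.42 ± 0.965 TPM in Usp7 WT; log2 1.03), and Slc17a6, Rgs16, Plekhg1, Synpo2 and Tnnt1 did not pass, with changes of 0.00 to 0.20. In edgeR 2 of 7 were higher, Prkcd and Lhx9 (log2 1.62; edgeR, adjusted p = 0.00024), where 14.0% of all genes were. Lhx9 averaged 0.288 ± 0.0738 TPM in Usp7 cKO and 0.106 ± 0.0469 TPM in Usp7 WT, under the minimum for limma. The 8 genes of the list summed to 48.3 to 64.3 TPM in Usp7 cKO and 40.5 to 46.2 TPM in Usp7 WT libraries, and Gbx2 was near 0. The part of tissue outside the cortex, and of any lower neuronal share of RNA, in the changes of the 34 genes was not tested.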

How the data were processed

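Total cortical RNA of 10 mice, 5 per genotype, was sequenced after RNase H removal of ribosomal RNA, with random primers, per the labels' protocols. Gene levels are TPM as deposited by the authors. Exon bins (DEXSeq) and introns (leafcutter) are read counts, per the file headers, and the bin table also holds the authors' log2 fold changes and p-values of exon usage. GRCm38, SAMtools 1.10, STAR 2.7.9a, featureCounts and Subread appear in the submitters' processing notes, without the role of each, and the counting strand is not given in the sources used here, so reads of overlapping antisense genes cannot be told apart. Intron counts of Usp7 WT replicate 1 were all even and were halved.

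Levels were tested with limma 3.58.1 (R 4.3.3) on log2(TPM + 0.5), trend and robust, with labelled sex as covariate, for genes that averaged 0.5 TPM or more. Usage was tested with edgeR 4.0.16 (diffSpliceDGE, TMM) for bins that averaged 10 or more counts and introns that averaged 5 or more, by the Simes p of a gene or cluster. P-values were two-sided and adjusted by Benjamini-Hochberg over all features, at a threshold of 0.05. Log2 changes on TPM + 0.5 understate those of low genes. Alternatives included edgeR and DESeq2 1.42.0 on bin counts summed per gene. The fits were tested on simulated data. Plots used matplotlib 3.10.9 in Python 3.11.15. Sequences come from GENCODE M21 transcripts of GRCm38.

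The members and the lists were chosen with earlier results of these data known. All 34 members are given, and of the other lists the called genes, up to 6 per list by smallest p, and up to 2 more. Library numbers only name libraries: per the labels, animals were chosen as litter- and sex-matched pairs, but no pair is named, so the main fits have no block. Intron counts used summed to 3388310 to 4367711 per library.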

Additional observations from a re-analysis of the deposited data

Results flagged for a closer look

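Over 66 groups of 5 libraries, 2 genes had a library far from the other 4 of its group, and chance flags about 1 group in 20. Vcan in Usp7 WT replicate 5 was at 14.7 TPM, where the other Usp7 WT libraries held 11.1 to 12.0 TPM. Aspa in Usp7 WT replicate 3 was at 3.52 TPM, where the others held 2.44 to 2.61 TPM.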

How the results depend on the processing

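The labels name no litter pairs, but the number that ends each sample's title is balanced over genotype. It is not balanced over sex: number 1 holds only libraries labelled male and number 2 only libraries labelled female. The deviations that follow were not adjusted for sex, and the part of sex in their correlations was not tested. Over 10760 genes, the deviations of libraries from their group means correlated at 0.0226 to 0.313 in the 9 Usp7 cKO and Usp7 WT pairs with the same number and at -0.289 to 0.167 in the other 16, a hint from the data and not the design. With this number as a block, chosen after the data were seen, 3654 genes were called, with 3 members higher and 0 lower, 10 other lineage genes higher and 1 lower. C1ql1 and Sapcd2 were called higher under all 23 alternatives, and Lhfpl3 under 22. Of 759 values of single genes under alternatives, 709 kept direction and side of the threshold, 16 came to pass it, 1 no longer passed and 33 changed sign.

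Called genes numbered 3832 in limma, 6429 in edgeR, 6599 in DESeq2 and 2181 without both libraries of discordant sex; leaving out 1 library at a time gave 2794 to 3585. Higher genes made up 66.4% of calls on TPM as deposited, 46.8% on rescaled TPM and 50.2% in edgeR. Members higher numbered 5 in edgeR and in DESeq2, and 3 to 4 with 1 library left out. Members lower numbered 1 on rescaled TPM (also without both discordant libraries or with Xist as covariate), in edgeR and in DESeq2, and 0 to 1 with 1 library left out. Other lineage genes higher, 9 in limma, numbered 15 in DESeq2, 5 without both discordant libraries and 6 to 14 with 1 left out. Other lineage genes lower, 1 in limma, numbered 4 on rescaled TPM, 3 in edgeR, 5 in DESeq2, 2 with Xist as covariate, and on rescaled TPM 2 without both discordant libraries and 3 with Xist; with 1 left out there were 1 to 2. No member changed in exon or intron usage under any alternative run.

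The sign changes were all in genes that never passed. With 1 library left out, log2 changes ranged from -0.01 to 0.09 for Olig1, -0.01 to 0.10 for Bcas1, -0.06 to 0.09 for Mbp, -0.13 to 0.05 for Mog, -0.01 to 0.12 for Mag, -0.11 to 0.02 for Mobp, -0.13 to 0.02 for Fa2h, -0.08 to 0.04 for Gjc3, -0.01 to 0.13 for Tmem63a and -0.02 to 0.10 for Plekhh1. Under the other settings the reversed values were -0.02 for Olig1, -0.02 and -0.03 for Olig2, -0.01 and -0.02 for Neu4, Bcas1 and Plekhh1, and -0.02, -0.03, -0.04, -0.05 and -0.06 for Mbp. The cause was not tested. Shares of Lhfpl3, Vcan and Tmem63a isoforms are limited by depth.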
